A study of Homo sapiens with 6 samples.

Results

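CDK4 and CDK2 are the genes of the cyclin-dependent kinases that drive cells from the G1 phase of the cell cycle into DNA synthesis. Their transcripts were examined in T24 bladder cancer cells depleted of the RNA-binding protein RBM3, together with those of 4 genes that lie beside them on chromosome 12, namely TSPAN31 and MARCHF9 at the CDK4 locus and PMEL and RAB5B at the CDK2 locus. CDK4 and CDK2 were chosen because their counts were lower in the RBM3-depleted cells, so their own difference between the groups is given as a description without a test. The 4 neighbours were chosen by their place, not by their counts. These 6 genes are 6 of the 63677 identifiers in the count table, and all 6 were among the 15099 genes that passed a filter on low counts.

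T24 is an established human cell line from an invasive urothelial carcinoma of the bladder. Cells of the siRBM3 group were transfected for 4.5 h with a pool of siRNAs against RBM3 at 25 nM, and collected on the next day, and control cells were given a non-targeting siRNA under the same conditions with the same lipid reagent. Polyadenylated RNA was read as stranded single-end libraries of 75 bp reads, with control replicates 1, 3 and 5 and siRBM3 replicates 3, 4 and 5. The sources describe the samples as triplicates without saying whether they came from separate cultures, so the p-values below measure only the spread between these 3 and 3 samples.

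A cyclin-dependent kinase is inactive until a cyclin binds it. The partners of CDK4 are the D-type cyclins, whose levels follow growth signals, and those of CDK2 are the E-type cyclins at the onset of DNA synthesis and the A-type cyclins while it runs. Both kinases phosphorylate the retinoblastoma protein and its relatives and thereby release E2F transcription factors, which switch on the genes of DNA replication. INK4 proteins such as p16 block CDK4, p21 and p27 bind the cyclin complexes of both kinases, and in bladder carcinoma this G1/S control is often disturbed. The neighbours belong to other processes. TSPAN31 encodes a tetraspanin, a membrane protein with 4 spans, MARCHF9 a membrane-bound ubiquitin ligase, PMEL a structural protein of the melanosome made by pigment cells, and RAB5B a small GTPase of early endosomes.

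The loci were drawn first, because transcripts that run over each other can share reads. On GRCh37, the build of the counts, CDK4 (ENSG00000135446) was annotated on the minus strand at chr12:58141510-58149796 and TSPAN31 (ENSG00000135452) on the plus strand at chr12:58131796-58144002, so that the 3′ ends of both genes point at each other and overlap. Over all annotated transcripts, 1369 exon bases lay in both genes, which is 44.2% of the 3094 exon bases of CDK4 and 26.1% of the 5251 of TSPAN31. In the main transcripts, exons 6, 7 and 8 of CDK4 (51, 136 and 891 bases) lay wholly inside the 3004-base last exon of TSPAN31. These 1078 bases make up 57.8% of the CDK4 transcript, and they hold 277 of its 909 coding bases (30.5%). None of the shared bases codes for TSPAN31, since they all fall in its 3′ untranslated region. The overlap is shown by the last 30 bases of the CDK4 reading frame in exon 8, at chr12:58142308-58142337 on the minus strand of GRCh37, which are printed because the other strand of the same bases is TSPAN31 3′ untranslated sequence. The stop codon is in capitals.
CDK4 coding end: ctacataaggatgaaggtaatccggagTGA

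**Figure D1:**
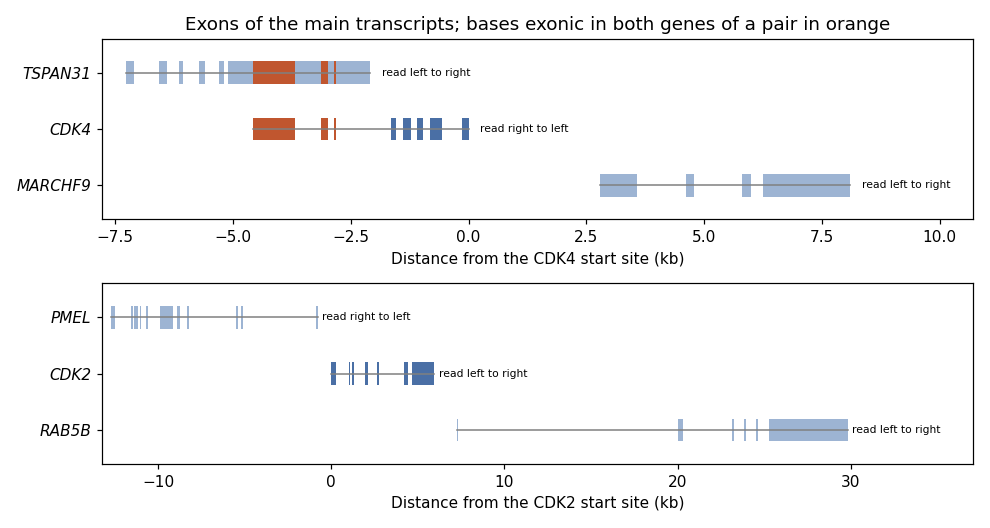
Exons (boxes) and introns (lines) of the main transcript of each gene, plotted by distance in kb from the CDK4 start site (upper panel) and the CDK2 start site (lower panel), with bases that are exonic in both genes of a pair in orange. CDK4 and TSPAN31 share 1078 bases of their main transcripts, whereas the main transcripts of CDK2, PMEL and RAB5B share none.

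MARCHF9 (ENSG00000139266, chr12:58148886-58154194, plus strand) lies on the other side of CDK4. The start sites of the main transcripts of CDK4 and MARCHF9 were 2793 bases apart and point away from each other. Longer annotated forms of CDK4 reach 911 bases into the MARCHF9 gene body (11.0% of the CDK4 body), but the genes shared no exon base. At the other locus, CDK2 (ENSG00000123374, chr12:56360565-56366573, plus strand) was wholly contained in the body of PMEL (ENSG00000185664, chr12:56347889-56367101, minus strand). The containment comes from longer PMEL forms: the main transcripts start 788 bases apart and run in opposite directions, and over all transcripts the exons of CDK2 and PMEL had 89 bases in common (2.29% of CDK2 and 2.42% of PMEL). A further 565 exon bases of CDK2 lay opposite the long noncoding gene ENSG00000258554, which had 0 counts in every library. RAB5B (ENSG00000111540, chr12:56367697-56390467, plus strand) begins 1123 bases after the end of CDK2 and had 0.521% of its exon bases in common with another gene.

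The start regions of the genes at the CDK4 locus are shown because their letters differ while the genes lie side by side. The set of RefSeq start regions used here (300 bases, 250 before and 50 after the start) had entries for 4 of the 6 genes. Those of CDK4 (chr12:57752261-57752560, minus strand), TSPAN31 (chr12:57744789-57745088, plus strand) and MARCHF9 (chr12:57754853-57755152, plus strand) follow in GRCh38.p14 coordinates, a later build than that of the counts. Capitals mark the E box CACGTG, the GC box GGGCGG and the CCAAT box CCAAT, searched on both strands, so that a GC box also appears as CCGCCC and a CCAAT box as ATTGG, and overlapping matches run together.
CDK4: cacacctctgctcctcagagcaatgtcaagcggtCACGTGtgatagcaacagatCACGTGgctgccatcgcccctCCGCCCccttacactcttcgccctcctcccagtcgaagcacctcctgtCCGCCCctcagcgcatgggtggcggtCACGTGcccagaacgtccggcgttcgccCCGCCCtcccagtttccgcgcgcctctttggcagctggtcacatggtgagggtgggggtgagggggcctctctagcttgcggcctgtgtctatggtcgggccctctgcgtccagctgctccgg
TSPAN31: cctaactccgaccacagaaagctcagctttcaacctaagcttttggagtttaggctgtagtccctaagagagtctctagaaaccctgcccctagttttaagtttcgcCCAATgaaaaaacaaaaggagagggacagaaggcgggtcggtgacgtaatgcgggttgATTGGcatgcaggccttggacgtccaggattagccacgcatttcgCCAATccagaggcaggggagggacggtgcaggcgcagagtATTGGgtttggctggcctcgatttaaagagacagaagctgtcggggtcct
MARCHF9: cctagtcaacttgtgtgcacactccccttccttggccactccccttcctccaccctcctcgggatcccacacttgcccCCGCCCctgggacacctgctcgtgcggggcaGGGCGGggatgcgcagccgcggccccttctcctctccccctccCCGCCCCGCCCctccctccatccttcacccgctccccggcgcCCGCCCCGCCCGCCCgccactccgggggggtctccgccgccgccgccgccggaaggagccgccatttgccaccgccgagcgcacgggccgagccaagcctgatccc
The CDK4 start region held 3 E boxes, 3 GC boxes and 0 CCAAT boxes. Of 35116 human start regions of the same length, 7.26% held at least 1 E box and 0.094% held 3 or more, while 15.8% held 3 or more GC boxes. The TSPAN31 start region had 4 CCAAT boxes, a number reached by 0.991% of all start regions, and 0 E boxes. MARCHF9 had 7 GC boxes, some of them overlapping, and 0 matches to either of the other motifs. Each of the 2 RAB5B start regions held 3 CCAAT boxes and 1 GC box. A match of letters describes these windows and does not show that a factor binds there.

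Library totals ranged from 23603992 to 45098612 counts. The deepest, siRBM3 replicate 3, also had the largest share of mitochondrial counts (9.4%, against 1.63% to 4.15% in the other libraries). Expression is given as CPM, the count of a gene scaled to the TMM-adjusted total of its library. RBM3 itself was at 225, 368 and 301 CPM in control replicates 1, 3 and 5 and at 54.1, 90.1 and 58.4 CPM in siRBM3 replicates 3, 4 and 5, a fold of 0.227 with no overlap of the groups. The keratins KRT7, KRT8, KRT18 and KRT19, which mark epithelium, summed to 5060 to 5860 CPM in control and 4200 to 4300 CPM in siRBM3 libraries, and the luminal urothelial list to 197 to 202 and 197 to 209 CPM, although the uroplakins UPK1A, UPK1B and UPK3A and the keratin KRT20 were at or near 0. Basal markers summed to 1070 to 1130 CPM in control and 1110 to 1300 CPM in siRBM3 libraries, nearly all from CD44, with KRT5, KRT6A and KRT14 at or near 0. Leukocyte and endothelial markers each summed to below 1 CPM, and fibroblast markers to 9.06 to 9.53 CPM in control and 10.1 to 11.4 CPM in siRBM3 libraries. The part of the keratin difference in the results below was not tested.

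CDK4 counts were lower in every siRBM3 library than in every control library. The gene was at 132, 127 and 129 CPM in control replicates 1, 3 and 5, from 3834, 3313 and 3438 counts. In siRBM3 replicates 3, 4 and 5 it was at 80.4, 92.0 and 81.6 CPM, from 3301, 2328 and 2023 counts. The control libraries lay close together, and the siRBM3 libraries held 62.1%, 71.0% and 63.1% of the control mean. The group means were 129 ± 2.7 and 84.7 ± 6.34 CPM (SD, n = 3 each), a log2 fold change of −0.61 (SE 0.09) or a fold of 0.654. Leaving out any 1 library gave −0.67 to −0.58. Among all genes tested, 1500 (9.93%) were lower in every siRBM3 library than in every control library, while 620 (4.11%) were lower and 576 (3.81%) higher by a fold of at least 1.5. CDK4 belongs to both sets of lower genes, which is a description only, since it was chosen for its fall.

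CDK2 was also lower in every siRBM3 library, with a much wider spread. It was at 71.1, 40.4 and 60.1 CPM in control replicates 1, 3 and 5, from 2063, 1057 and 1596 counts. The siRBM3 replicates 3, 4 and 5 were at 12.9, 33.6 and 31.6 CPM, from 529, 850 and 782 counts. Replicate 3 thus had the fewest CDK2 counts of all libraries in spite of the largest total, and held 22.5% of the control mean against 58.7% and 55.2% in replicates 4 and 5. Group means were 57.2 ± 15.5 and 26.0 ± 11.4 CPM (SD, n = 3 each), a log2 fold change of −1.14 (SE 0.37) or a fold of 0.453. Without siRBM3 replicate 3, the library with the high mitochondrial share, the log2 fold change was −0.81, and leaving out other libraries gave values down to −1.37. The part of the mitochondrial share or the depth of that library in the CDK2 value was not tested.

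The kinases therefore differed in how evenly the libraries of a group behaved. The pooled SD of log2 CPM within groups was 0.08 for CDK4 and 0.62 for CDK2. CDK4 stood at 1.86, 3.13 and 2.15 times the CPM of CDK2 in the control libraries and at 6.24, 2.74 and 2.59 times in the siRBM3 libraries, so that this ratio overlapped between the groups and its high value came from siRBM3 replicate 3.

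**Figure D2:**
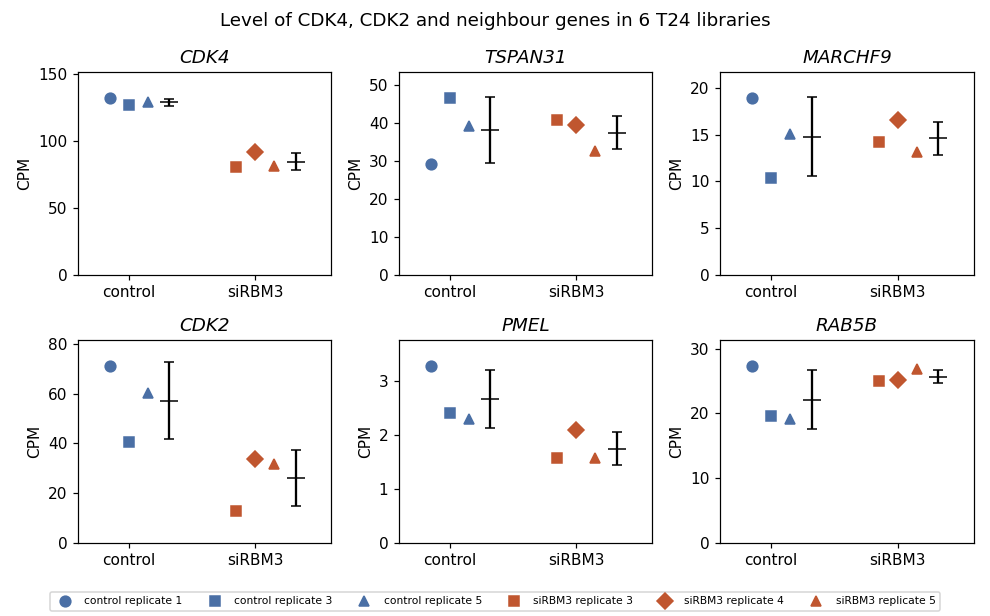
CPM of each gene in the 6 libraries (points, blue for control and orange for siRBM3, with the shape giving the replicate number) with the group mean and SD beside them (black). CDK4, CDK2 and PMEL do not overlap between the groups, whereas TSPAN31, MARCHF9 and RAB5B do.

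The neighbours were then compared between the groups by edgeR (quasi-likelihood test, Benjamini-Hochberg adjustment over all 15099 genes). TSPAN31, which shares exon bases with CDK4, was at 29.0, 46.4 and 39.0 CPM in control replicates 1, 3 and 5 and at 40.6, 39.3 and 32.5 CPM in siRBM3 replicates 3, 4 and 5. The groups overlapped, and control replicate 1 was the lowest of the 6 libraries. Means of 38.1 ± 8.78 and 37.4 ± 4.31 CPM (SD, n = 3 each) gave a log2 fold change of −0.02 (SE 0.18) with a Benjamini-Hochberg adjusted p of 0.964 in this edgeR test. MARCHF9 was at 18.9, 10.4 and 15.1 CPM in the control and 14.2, 16.6 and 13.1 CPM in the siRBM3 libraries. All 3 siRBM3 values lay within the control range, and the log2 fold change was −0.02 (SE 0.22, adjusted p = 0.982 in the same edgeR test). The sign of both values turned when single libraries were left out, with ranges of −0.19 to 0.14 for TSPAN31 and −0.22 to 0.2 for MARCHF9.

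PMEL was the neighbour with a lower level in siRBM3 cells. Its counts were low, with 95, 63 and 61 in control replicates 1, 3 and 5 and 64, 53 and 39 in siRBM3 replicates 3, 4 and 5. This corresponds to 3.27, 2.41 and 2.3 CPM in control and 1.56, 2.09 and 1.57 CPM in siRBM3 libraries. The groups did not overlap, but the lowest control and the highest siRBM3 library lay close together. The log2 fold change was −0.62 (SE 0.25), with an unadjusted p of 0.0355 and an adjusted p of 0.338 in the edgeR test, so PMEL did not pass. Leaving out 1 library at a time gave −0.76 to −0.44. RAB5B was at 27.3, 19.6 and 19.2 CPM in control and 25.0, 25.2 and 26.8 CPM in siRBM3 libraries. Control replicate 1 was the highest of all 6 libraries, the groups overlapped, and the log2 fold change was 0.22 (SE 0.16, adjusted p = 0.602 by edgeR). RAB5B alone of the 4 neighbours had a positive fitted value, and it stayed positive, between 0.13 and 0.4, with any 1 library left out.

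Among the neighbours, 0 of 4 passed the thresholds of an adjusted p below 0.01 and a fold of at least 1.5 by edgeR, DESeq2 or limma-voom. These thresholds called 0 of all genes by edgeR in either direction (0.0%), and the smallest adjusted p of any gene was 0.0822. RBM3 itself, the target of the siRNAs, had an adjusted p of 0.0822 by edgeR and was not called, against 3.87e-14 by DESeq2. A count of 0 by edgeR, here and below, therefore does not show a lack of change. At an unadjusted p below 0.05, edgeR gave 990 genes higher (6.56%) and 993 lower (6.58%), with PMEL in the second set. DESeq2 called 84 genes higher (0.643%) and 75 lower (0.574%), and limma-voom called 0 of all genes. A count of 0 by limma-voom, here and below, therefore does not show a lack of change either. With such small shares of all genes, the same holds for a count of 0 by DESeq2 in a short list. PMEL was also the only neighbour whose groups did not overlap, 1 of 4 against 9.93% of all genes lower and 9.98% higher in this sense. The median log2 fold change of all genes was −0.01, and 5% of genes lay below −0.54 and 5% above 0.53. By sign alone, 48.5% of all genes were positive and 51.5% negative.

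Ratios within a library do not depend on the scaling of that library. CDK4 counts were 4.56, 2.73 and 3.32 times those of TSPAN31 in the control and 1.98, 2.34 and 2.51 times in the siRBM3 libraries. Every siRBM3 ratio was below every control ratio, and the mean log2 ratio went from 1.79 ± 0.37 to 1.18 ± 0.17 (SD, n = 3 each), a difference of −0.61. CDK4 over MARCHF9 was 7.0, 12.2 and 8.57 in control and 5.65, 5.54 and 6.22 in siRBM3 libraries, again without overlap. CDK2 over RAB5B was 2.6, 2.06 and 3.13 against 0.516, 1.33 and 1.18. CDK2 over PMEL, in contrast, overlapped, with 21.7, 16.8 and 26.2 against 8.27, 16.0 and 20.1. As these ratios contain the kinase that was chosen for its difference, they carry no test.

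Whether reads of a kinase could be counted for its neighbour depends on the use of strand, a setting of the counting step that the sources used here do not give. The table itself was therefore examined. Of 343 genes whose exons were wholly covered by a gene of the opposite strand with at least 1000 counts, 259 (75.5%) had counts, but their density of counts per exon base was at the median 2.29% of that of the covering gene. Of 410 genes wholly covered on the same strand, 63 (15.4%) had counts. Even a protein-coding gene with less than 10% of its exon bases shared was without counts in 178 of 192 cases (92.7%) when it lay inside the body of a gene of the same strand, compared with 228 of 751 (30.4%) inside a gene of the opposite strand and 1765 of 15034 (11.7%) inside no other gene. Overlap with the whole body of a gene on the same strand thus went together with missing counts, whereas overlap with the opposite strand did so far less.

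None of the 6 genes overlaps an annotated gene body of its own strand, except PMEL, whose body contains ENSG00000258554 over 637 bases. Only the 55665 of 63677 identifiers matched to the annotation could be checked for this. The counts of TSPAN31 equalled 21.9% to 50.4% of those of CDK4, with the lowest share in control replicate 1 and the highest in siRBM3 replicate 3. In absolute terms the mean of TSPAN31 differed by −0.674 CPM between siRBM3 and control cells, and that of CDK4 by −44.8 CPM. PMEL counts equalled 3.82% to 12.1% of those of CDK2, and the highest share was again in siRBM3 replicate 3, where CDK2 was lowest. The part of reads from the opposite strand in the PMEL and TSPAN31 counts was not tested, as the table holds no counts by position.

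Levels were compared between the 6 genes per kb of exon bases. Given the missing counts of genes inside a gene body of the same strand, the counts may also include reads in introns, in which case a level per exon kb overstates genes with long introns and the shares of exon bases above do not give the shares of counted bases. In control cells the order was CDK4 (41.8 ± 0.874 CPM per kb), CDK2 (14.7 ± 4.0), TSPAN31 (7.26 ± 1.67), MARCHF9 (3.7 ± 1.06), RAB5B (3.38 ± 0.701) and PMEL (0.725 ± 0.146), each with SD and n = 3. CDK4 ranged from 41.0 to 42.7, CDK2 from 10.4 to 18.3 and TSPAN31 from 5.51 to 8.84 CPM per kb, so the first 3 were apart in level, whereas the ranges of MARCHF9 (2.6 to 4.72) and RAB5B (2.94 to 4.19) overlapped. In siRBM3 cells CDK4 remained highest at 27.4 ± 2.05 CPM per kb. CDK2 at 6.69 ± 2.93 then lay in the range of TSPAN31 at 7.13 ± 0.821 CPM per kb, and RAB5B (3.93 ± 0.155) lay within the range of MARCHF9 (3.66 ± 0.443), so the order within these pairs was not resolved. Dividing instead by exon bases that no other gene shares raised the control level of CDK4 to 75 and of TSPAN31 to 10.3 CPM per kb. This division keeps all counts and removes only bases, so it overstates the level if reads in shared bases were counted. The share of such reads was not tested. Dividing by the whole gene body, a choice made after the strand counts above were seen, gave control levels of 15.6 for CDK4, 9.52 for CDK2, 3.12 for TSPAN31, 2.79 for MARCHF9, 0.969 for RAB5B and 0.138 for PMEL, in CPM per kb. The order of the means was the same, but MARCHF9 and RAB5B, which overlapped per exon kb, were then farther apart. TSPAN31 and MARCHF9, whose ranges were apart per exon kb, then lay close together at 3.12 and 2.79.

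The wider neighbourhood was examined to see how the kinases compared with genes around them. Within 250 kb of CDK4, 31 of 42 annotated genes had counts and 23 besides CDK4 were tested, 8 with a positive and 15 with a negative log2 fold change. Their median was −0.02 and their range −0.59 to 0.54. CDK4, which was chosen for its fall, had the lowest value in its window, close to the −0.59 of CYP27B1. By edgeR 0 of the 23 passed the thresholds, the smallest adjusted p being 0.214, and DESeq2 and limma-voom also called 0. At an unadjusted p below 0.05 there were 1 higher and 2 lower genes of 23, where 6.56% of all genes were higher and 6.58% lower. These were CTDSP2, a phosphatase gene (0.31, from 153 to 172 CPM in control to 193 to 208 CPM in siRBM3 cells), CYP27B1, which encodes the enzyme that activates vitamin D (−0.59, from 4.22 to 5.55 CPM to 2.8 to 3.67 CPM), and DDIT3, the stress-response factor CHOP (−0.44, overlapping groups). The lower count was 0 without control replicate 3 and 1 without control replicate 5, siRBM3 replicate 4 or siRBM3 replicate 5. Without control replicate 1 there were 2 higher and 3 lower.

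Within 250 kb of CDK2, 34 of 45 genes had counts and 28 besides CDK2 were tested, 13 with a positive and 15 with a negative value. The median was −0.07, and the range ran from −0.63 for SARNP to 0.68 for ERBB3, both of which overlapped between groups. Again edgeR called 0 of the 28, with a smallest adjusted p of 0.229, and so did DESeq2 and limma-voom. At an unadjusted p below 0.05, TMEM198B was higher (0.40, from 18.3 to 20.2 CPM to 23.3 to 27.3 CPM), and PMEL and the ribosomal protein gene RPS26 were lower (RPS26 −0.40, from 35.2 to 47.8 CPM to 27.3 to 33.0 CPM). These counts of 1 higher and 2 lower of 28 stand beside 6.56% higher and 6.58% lower among all genes. Without control replicate 1 they were 6 higher and 4 lower, without control replicate 5 there were 2 higher, and without siRBM3 replicate 5 there were 0 lower.

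**Figure D3:**
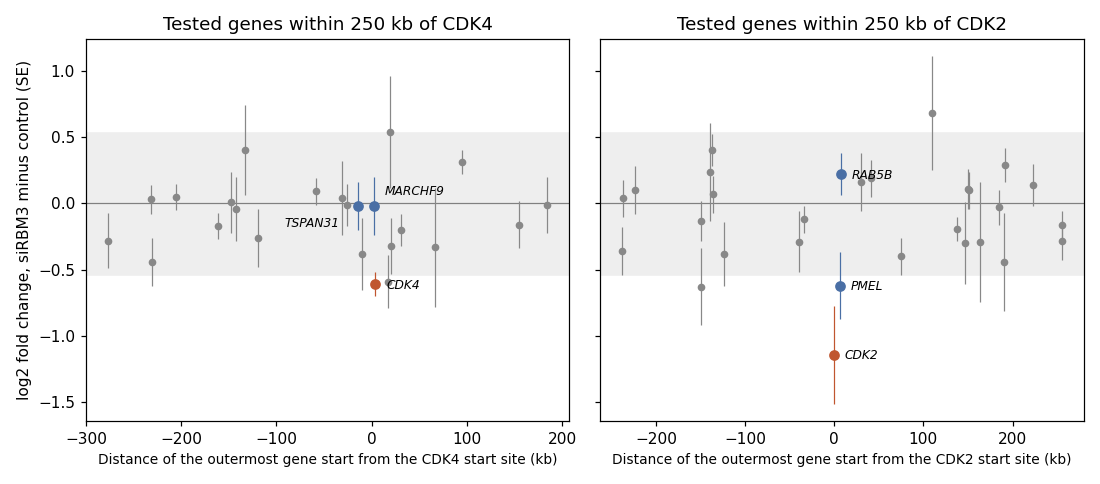
Log2 fold change (points, with SE as bars) of every tested gene within 250 kb of CDK4 (left) and CDK2 (right) by the distance in kb of its outermost annotated start from the start site of the kinase's main transcript, with the kinase in orange, its neighbours in blue and the range from −0.54 to 0.53, with 5% of all genes on either side of it, in grey. CDK4 at −0.61 and CDK2 at −1.14 are the lowest points of their windows, a description only, since both were chosen for their fall. TSPAN31 and MARCHF9 sit at −0.02.

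The other cyclin-dependent kinases and their relatives formed a list of 23 genes. Of these 19 were tested, 9 with a positive and 10 with a negative log2 fold change and a median of −0.04. CDK19, a kinase of the Mediator complex that regulates transcription, was at 30.8, 22.9 and 30.5 CPM in control replicates 1, 3 and 5. In siRBM3 replicates 3, 4 and 5 it was at 43.0, 51.7 and 54.6 CPM. The groups were apart, and the log2 fold change was 0.82 (SE 0.15, adjusted p = 0.0984 by edgeR), which passed the thresholds with DESeq2 alone. CDK8, the partner paralogue of CDK19, had 0.27 (adjusted p = 0.339 by edgeR). CDK16, a kinase related to the cell cycle kinases, was at 199, 178 and 189 CPM against 120, 144 and 139 CPM, a log2 fold change of −0.49 (SE 0.10, adjusted p = 0.125 by edgeR). By edgeR 0 of the 19 passed, with 2 higher and 1 lower at an unadjusted p below 0.05 (6.56% and 6.58% of all genes), and limma-voom called 0. The higher count was 1 without control replicate 5, siRBM3 replicate 3 or siRBM3 replicate 5. Without overlap of the groups, 3 of the 19 were higher and 1 was lower, beside 9.98% and 9.93% of all genes.

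CDK6, which shares its D-type cyclins with CDK4, was at 115, 181 and 117 CPM in control and 168, 112 and 119 CPM in siRBM3 libraries. The groups overlapped and the log2 fold change was −0.05 (SE 0.22). CDK1, the mitotic kinase, was at 60.0, 82.7 and 137 CPM against 40.5, 68.5 and 80.8 CPM, overlapping, with −0.56 (SE 0.34, adjusted p = 0.537 by edgeR). CDK7, which activates other cyclin-dependent kinases by phosphorylation, had −0.04 (SE 0.14). CDK3, CDK11A and CDKL3 had 0 counts in all libraries, and at least 98.4% of the body of each lies within another gene of the same strand. A lack of expression cannot be told apart from unassigned reads there.

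Cyclins, inhibitors, regulators and substrates of CDK4 and CDK2 made a list of 33 genes, of which 32 were tested, 10 with a positive and 22 with a negative log2 fold change. The median was −0.10. By edgeR 0 passed, with a smallest adjusted p of 0.18, and DESeq2 and limma-voom also called 0. At an unadjusted p below 0.05 there were 3 higher (9.38% of the list, against 6.56% of all genes) and 5 lower (15.6%, against 6.58%), and the lower count was 1 without control replicate 5, 2 without siRBM3 replicate 4, 3 without either control replicate 3 or siRBM3 replicate 3, 4 without siRBM3 replicate 5 and 6 without control replicate 1. In 3 of the 32 genes every siRBM3 library was higher than every control library, and in 3 every one was lower. These shares are close to the 9.98% and 9.93% of all genes, so the separations given below are not particular to this list. The siRBM3 replicate 3 was the lowest of the 6 libraries for 13 of the 32 genes (40.6%) and for 19.4% of all genes.

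Among the D-type cyclins, which activate CDK4, CCND1 and CCND3 lay on opposite sides. CCND1 was at 641, 583 and 736 CPM in control replicates 1, 3 and 5 and at 422, 532 and 545 CPM in siRBM3 replicates 3, 4 and 5 (log2 fold change −0.39, SE 0.13, adjusted p = 0.279 by edgeR). CCND3 was at 23.9, 9.49 and 14.3 CPM against 25.3, 29.2 and 34.8 CPM (0.90, SE 0.31, adjusted p = 0.279 by edgeR). Neither overlapped between the groups and neither passed, and CCND2 had at most 8 counts in any library and was not tested. The cyclins of CDK2 overlapped between the groups. CCNE1 had a log2 fold change of 0.01 (SE 0.38), CCNE2 −0.27 (SE 0.34), CCNA1 −0.63 (SE 0.33) and CCNA2 −0.13 (SE 0.36).

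Of the inhibitors, CDKN1B, which encodes p27, was at 65.2, 61.7 and 85.7 CPM in control and 89.4, 98.0 and 95.8 CPM in siRBM3 libraries. All siRBM3 libraries were above all control libraries, and the log2 fold change was 0.41 (SE 0.13, adjusted p = 0.259 by edgeR). CDKN1A, the gene of p21, was at 149, 156 and 175 CPM against 131, 134 and 147 CPM (−0.22, SE 0.10, adjusted p = 0.393 by edgeR), without overlap but close together. The INK4 genes CDKN2A, CDKN2B, CDKN2C and CDKN2D overlapped between the groups, their log2 fold changes being −0.14, 0.12, −0.10 and −0.27 and their SE 0.19 to 0.38.

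The kinases WEE1 and PKMYT1, which place inhibiting phosphates on cyclin-dependent kinases, had opposite signs. WEE1 was at 50.9, 57.6 and 78.3 CPM against 96.8, 81.4 and 111 CPM (0.63, SE 0.18, adjusted p = 0.214 by edgeR), and PKMYT1 at 25.0, 16.1 and 22.0 CPM against 9.24, 13.0 and 13.7 CPM (−0.82, SE 0.21, adjusted p = 0.18 by edgeR). Neither overlapped between the groups. CCNH, the cyclin of CDK7 (−0.42), CKS1B, a small CDK-binding subunit (−0.50), and RBL1, the retinoblastoma relative p107 (−0.43), were the other 3 with an unadjusted p below 0.05, all with overlapping groups. RB1 itself was at 130 to 150 CPM in control and 139 to 144 CPM in siRBM3 libraries (0.02, SE 0.09). The chaperone genes CDC37, HSP90AA1 and HSP90AB1, whose products help CDK4 to fold, had −0.10, −0.03 and −0.05 with overlapping groups.

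**Figure D4:**
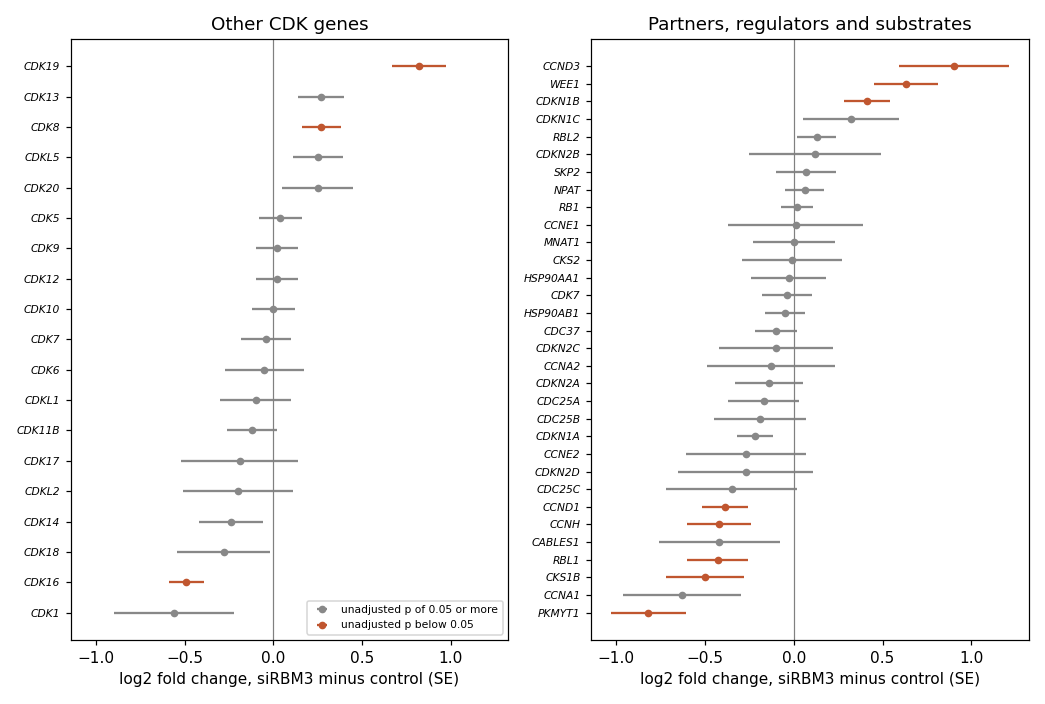
Log2 fold change (points, with SE as bars) of the other cyclin-dependent kinase genes (left) and of the partners, regulators and substrates of CDK4 and CDK2 (right), ordered by value, with an unadjusted edgeR p below 0.05 in orange. CDK19 at 0.82 and CCND3 at 0.90 lead on the positive side, PKMYT1 at −0.82 on the negative side.

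Genes related to the neighbours were counted in the same way. Of the RAB5 proteins, exchange factors and effectors, 19 of 22 matched genes were tested, 11 with a positive and 8 with a negative value and a median of 0.01. RAB5A was at 86.6 ± 14.0 CPM in control and 86.0 ± 3.38 CPM in siRBM3 cells (SD, n = 3 each). RAB5C had 3 counts in all, and 99.6% of its body lies within another gene of the same strand. The endosomal tether EEA1 was at 44.5, 51.1 and 34.5 CPM against 92.4, 58.2 and 63.0 CPM (0.72, adjusted p = 0.219 by edgeR), and RAB5IF at 5.65, 7.38 and 9.45 CPM against 5.22, 2.73 and 2.22 CPM (−1.12, adjusted p = 0.234 by edgeR). These were the only 2 of the 19 with an unadjusted p below 0.05, where 6.56% of all genes were higher and 6.58% lower, and the higher count was 2 without control replicate 3 or siRBM3 replicate 4. RABGEF1 and TBC1D3 had 0 counts although only 2.73% and 30.5% of their bodies lie within a gene of the same strand, among identifiers matched to the annotation.

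Of the MARCH ligases beside MARCHF9, 7 of 10 were tested with a median of 0.03. MARCHF2 (0.34) and MARCHF6 (0.32) had an unadjusted p below 0.05, 2 of 7 where 6.56% of all genes were higher. There were 0 such genes without siRBM3 replicate 3 and 1 without control replicate 3 or 5, and 1 lower gene was added without control replicate 1. Of the tetraspanins beside TSPAN31, 21 of 32 were tested with a median of −0.01. TSPAN12 was at 15.2, 17.3 and 17.8 CPM against 30.3, 33.2 and 22.5 CPM (0.78, adjusted p = 0.131 by edgeR) and passed the thresholds with DESeq2 alone, while TSPAN2 (−1.21), TSPAN4 (−0.39) and TSPAN5 (−0.28) were on the lower side at an unadjusted p below 0.05. These 1 higher and 3 lower of 21 stand beside 6.56% and 6.58% of all genes, and the lower count was 2 without control replicate 3 or siRBM3 replicate 5 and 4 without control replicate 1 or siRBM3 replicate 4. By edgeR and limma-voom 0 genes of these 3 lists passed.

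The pigment-cell genes give the setting of PMEL. TYR, TYRP1, DCT and MLANA, which define melanocytes, had 4, 4, 3 and 4 counts over all 6 libraries, whereas their transcription factor MITF was at 12.1 ± 0.532 CPM in control and 13.6 ± 1.18 CPM in siRBM3 cells (SD, n = 3 each). PMEL was thus counted in cells in which the defining melanocyte genes were at or near 0. Of the 9 listed melanosome genes, 3 were tested and 0 had an unadjusted p below 0.05.

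Finally, the pattern of each kinase over the 6 libraries was compared with that of 9427 genes with a mean of at least 10 CPM, by Pearson's r of log2(CPM + 0.5). The libraries fall into the siRBM3 and control groups, so any gene with a similar difference correlates. The 5 genes most like CDK4 were PUSL1, ACTN4, SNX17, IDH3A and SETD3, with r from 0.988 to 0.999, and those most like CDK2 were MPV17L2, EXO1, STARD3, APEH and UNC13D, with r from 0.994 to 0.997. PMEL, at under 10 CPM, was not among the genes compared. CDK4 and CDK2 had an r of 0.84. With its neighbours CDK4 had −0.01 for TSPAN31 and 0.08 for MARCHF9, and CDK2 had −0.23 for RAB5B, as a description over 6 libraries.

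**Figure D5:**
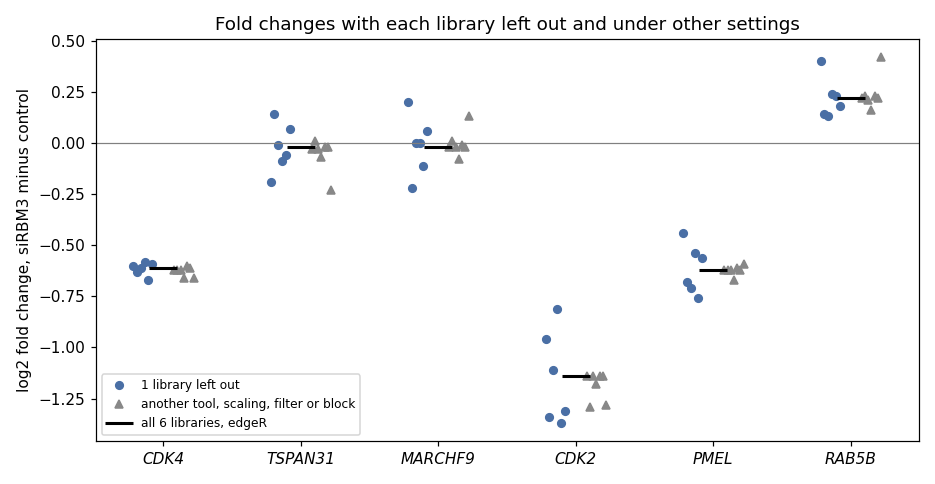
Log2 fold change of each gene in all 6 libraries by edgeR (black bar), with each library left out in turn (blue) and under another tool, scaling, filter or block (grey). CDK4 stays between −0.67 and −0.58 and CDK2 between −1.37 and −0.81, whereas TSPAN31 and MARCHF9 lie on both sides of 0.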

How the data were processed

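RNA of 3 control and 3 siRBM3 T24 samples was sequenced. According to the submitters' processing notes and the methods of the study, reads were aligned to GRCh37 with STAR 2.5.2a, duplicates were marked with Picard and reads were counted per gene with featureCounts. The deposited values are raw counts per Ensembl gene identifier, not normalized by the authors. The annotation release, the strand setting and the handling of duplicates in counting were not given in the sources used here. Every sample column of the table was used.

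Gene places and symbols came from GENCODE release 44 mapped to GRCh37, which matched 55665 of 63677 identifiers. Genes were kept by filterByExpr (minimum count 10, minimum total 15). Counts were scaled by TMM and fitted with the quasi-likelihood test of edgeR 4.0.16 with group as the only factor and Benjamini-Hochberg adjustment over 15099 genes. The SE of a log2 fold change was derived from this test, as its absolute value divided by the square root of the F statistic. A call needed an adjusted p below 0.01 and a fold of at least 1.5, the thresholds of the study, which used DESeq2. Alternatives were DESeq2 1.42.0, limma-voom (limma 3.58.1), RLE or library-size scaling, other filters, each library left out and the replicate number as a block. An exact permutation test (two-sided) of 3 against 3 libraries has a smallest p of 0.1, so none was used. Libraries of a group differed by more than counting noise (chi-square per degree of freedom 27.7 to 141), so each was counted as its own library, which does not show that they came from separate cultures. The fit was tested on simulated data with the same spread for every gene, which does not show its power on these libraries. R 4.3.3 and Python 3.11.15 were used.

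The genes and lists were chosen with earlier results of these data known. The genes named were the 6 studied and the genes of the lists and of the windows of 250 kb around each kinase with an unadjusted p below 0.05, plus the defining cyclins and inhibitors and the 5 genes most like each kinase. SARNP, ERBB3, CDK6, CDK1, CDK7, RB1, the chaperones, RAB5A, MITF and genes at or near 0 were added after their values were seen.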

Additional observations from a re-analysis of the deposited data

How the results depend on the processing

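CDK4, CDK2, PMEL and RAB5B kept their direction under every alternative run. The values that turned were within the spread between libraries: TSPAN31 was 0.01 with limma-voom and between −0.19 and 0.14 with 1 library left out, and MARCHF9 was 0.01 with limma-voom and between −0.22 and 0.2 with 1 library left out. The number of genes called was 0 in either direction with edgeR in the main setting. It was 84 higher and 75 lower with DESeq2. By edgeR it was 127 and 152 without a filter on low counts, and 990 and 993 at an unadjusted p below 0.05. With 1 library left out 0 genes were called higher and 0 to 1 lower, the single gene arising without control replicate 1. The cause of these differences was not tested.

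The groups share only the replicate numbers 3 and 5, and nothing states that a number marks a shared culture. The deviations of same-numbered libraries from their group means correlated with r = 0.528 for number 3 and r = 0.0884 for number 5 over 15099 genes. Libraries with different numbers were not compared in this way, so these values cannot show whether a number marks a shared culture. With the replicate number as a block, libraries whose number is not found in both groups add nothing to the group difference. That fit therefore compares only the libraries numbered 3 and 5. Almost nothing is left in it to measure the spread of a single gene. Its calls and adjusted p-values thus rest largely on a spread borrowed from other genes. With it edgeR called 145 genes higher and 191 lower. MARCHF9 was then 0.13, TSPAN31 −0.23, PMEL −0.59, RAB5B 0.42, CDK4 −0.66 and CDK2 −1.28 on the log2 scale, and no neighbour passed. RAB5B came nearest, with an adjusted p of 0.0543 in this edgeR fit against 0.602 in the main one. Among the 6 genes PMEL had the fewest counts, 39 to 95 per library.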
